A study of Rattus norvegicus with 17 samples.

Results

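Gubernacula of fetal rats were kept in organ culture with or without 100 nM insulin-like 3 (Insl3), and the transcripts of the 2 groups were compared across all genes of the array. The comparison took every array labelled as 100 nM Insl3 (6) and every array labelled as untreated control (6), that is 12 of the 17 arrays of the series. The other arrays were treated with 10 nM Insl3. Of those, 3 entered the fit only to help estimate the spread, and they also counted in choosing which values were tested. The other 2, which the submitters had marked as outliers, were set aside. All animals were male Long Evans fetuses taken on gestational day 17. Each replicate was a pool of 2 gubernacular bulbs cultured at an air and liquid interface, first for 24 h without hormone and then for 24 h with or without Insl3. Every culture, controls included, had medium with 2% charcoal-stripped fetal bovine serum and an insulin, transferrin and selenium supplement. The labels call the replicates biological but do not say which fetuses or litters they came from, and all p-values rest on how far these pools differ from each other. The question was which transcripts differ after a day of hormone, and the account below takes in gene classes and expression levels beyond the genes that changed most.

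The gubernaculum is the ligament that anchors the fetal testis near the abdominal wall. Insl3 is made by fetal Leydig cells and acts through Rxfp2, a G protein-coupled receptor that raises cyclic AMP. Its signal makes the gubernacular bulb enlarge, which holds the testis low in the abdomen during the first phase of descent, and loss of the hormone or its receptor leaves the testis undescended. Cyclic AMP activates protein kinase A, which phosphorylates factors that bind the cyclic AMP response element, and its level is brought down again by phosphodiesterases.

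RNA was read on an Affymetrix rat expression array, on which a probe set is the group of short probes made against 1 transcript. The deposited values are on a log scale taken here as log2, so 1 unit is a 2-fold difference. Arrays correlated at 0.978 to 0.996. Array medians lay between 4.28 and 4.45, and between 32.1% and 35.7% of the probe sets of an array sat within 0.01 of the lowest value, 2.11. The number of arrays limits the precision of every value. A probe set was tested if it passed 2.28 in at least 3 of the 15 arrays fitted, those at 10 nM included. That value is the 40th percentile of all their values, and 18938 of 31042 probe sets were kept. Below, a gene is said to lie at the floor in a group when none of its arrays there passed 2.28. On average 18596 ± 49.6 probe sets, of all on the array, passed that value at 100 nM (SD, n = 6) and 18673.5 ± 81.8 in controls (SD, n = 6), a difference of -77.5 that did not pass a 2-sided exact permutation test (p = 0.0779, over 924 assignments of the arrays). The labelled tissue carried the markers it should: the 16 skeletal muscle markers on the array averaged 11.55 in controls and the 14 fibroblast markers 11.27. Of the fibroblast markers only Tcf21 lay at the floor, while all 8 testis markers on the array, the Insl3 gene among them, lay there. None of the germ cell markers looked for had a single-gene probe set. Of 10 epithelial markers 6 lay at the floor, Epcam among them, while the keratins Krt8 and Krt18 averaged 8.09 and 5.71 in controls and Tp63 3.71. In whole tissue, fewer cells of a type and less RNA per cell cannot be told apart.

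In limma's moderated test, 2065 of 18938 probe sets (10.9%) differed between 100 nM Insl3 and control at an adjusted p under 0.05. Of these, 1233 were higher with the hormone (6.51%) and 832 were lower (4.39%). Unless another fit is named beside them, adjusted p-values below come from this fit, with Benjamini-Hochberg adjustment over every tested probe set. With 1 probe set standing for each gene, the one with the highest mean, 869 of 10665 genes rose (8.15%) and 424 fell (3.98%). Leaving out control replicate 4 brought the genes that fell down to 266 (544 probe sets), and leaving out 100 nM replicate 4 brought them to 272 (527 probe sets). Every one of the 869 and 424 genes had the same sign within replicates 1, 2 and 6 as within replicates 3, 4 and 5, which is in part fixed by their choice. Through all 12 fits that left out 1 array, 560 of the genes that rose and 232 of those that fell stayed past the threshold.

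Most of the changes were small. Among the genes that rose, 480 did so by less than 0.5, 238 by 0.5 to 1, 116 by 1 to 2 and 35 by 2 or more, with a median of 0.46. Among the genes that fell, 212 did so by less than 0.5, 155 by 0.5 to 1, 31 by 1 to 2 and 26 by 2 or more, with a median size of 0.50. Over all 10665 genes the median difference was 0.02, with 55.3% above 0 and a median standard error of 0.10.

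**Figure D1:**
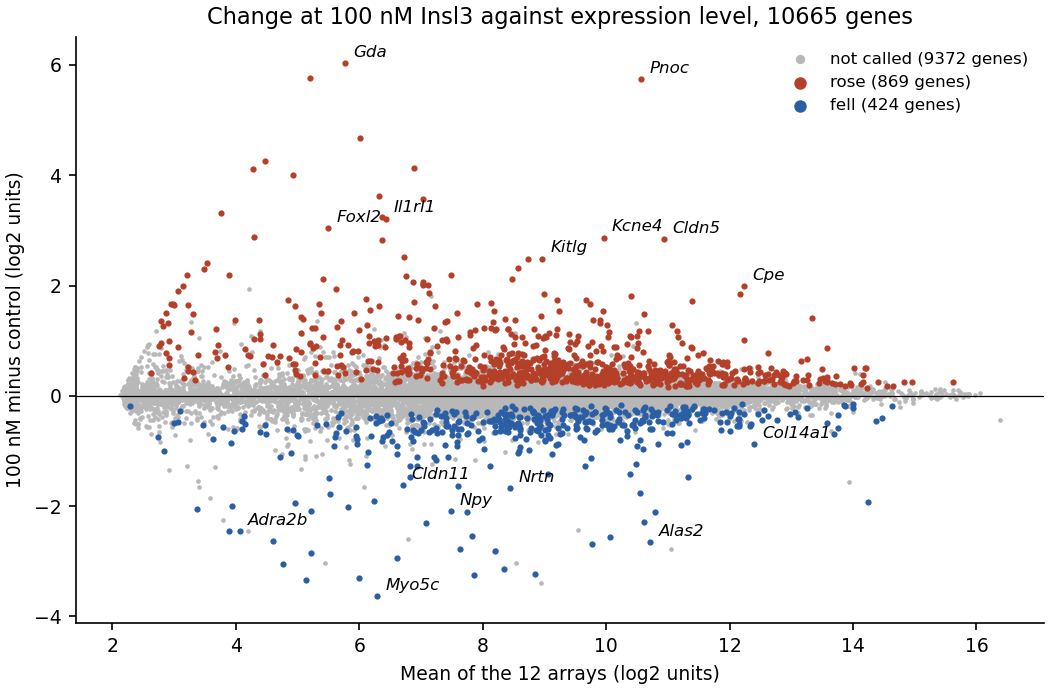
Each point is a gene, placed by its mean log2 value over the 12 arrays (horizontal axis) and its log2 difference between 100 nM Insl3 and control (vertical axis), with colours for genes that rose, fell or did not pass the test. The 869 genes that rose and the 424 that fell are spread over the whole range of levels, and the largest differences lie above the line of no change.

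A stricter description uses no model. In 659 probe sets the 6 arrays at 100 nM all lay above the 6 controls (3.48%), and in 280 they all lay below (1.48%). Of the 1233 probe sets called higher, 616 were apart in this way, and of the 832 called lower, 265 were. By gene, 450 of the 869 that rose and 139 of the 424 that fell had groups that did not overlap.

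How often a probe set was called varied with how strongly it was expressed. With the tested probe sets in 10 equal levels of their mean over the 12 arrays, 2.22% were called in level 1, which holds means from 2.12 to 3.09, and 6.97% in level 2. From level 6 up, that is above 8.01, the share lay between 12.9% and 14.1%. Called rises made up 1.48% of level 1 and 9.08% of level 9, and called falls 0.739% of level 1 and 5.60% of level 6. The sizes ran the other way. The median size of a called change was 0.86 in level 2 and 0.34 in level 10, and calls of at least 2-fold made up 3.48% of levels 3 and 4 and 0.423% of level 10. The standard error had a median of 0.10 in level 1, 0.16 in level 3 and 0.07 in level 10. Its part in these shares was not tested.

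**Figure D2:**
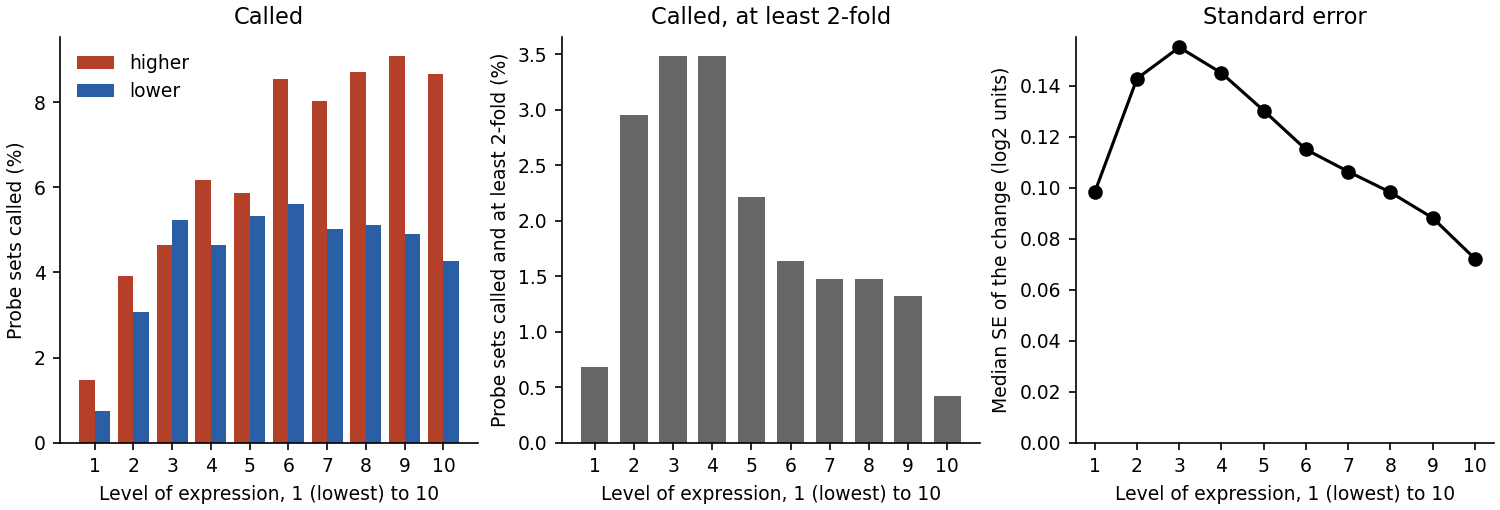
The 3 panels give, for 10 equal levels of the tested probe sets ordered by mean log2 value over the 12 arrays, the percent called higher and lower at 100 nM Insl3, the percent called and changed at least 2-fold, and the median standard error. Calls rise from 2.22% in level 1 to between 12.9% and 14.1% in levels 6 to 10, while 2-fold calls peak at 3.48%.

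Just behind the 12 largest rises stood genes for receptors, secreted signals and transcription factors. Il1rl1, the receptor for interleukin 33, lay between 4.07 and 5.23 in controls (median 4.90) and between 7.15 and 8.75 at 100 nM (median 8.09), a rise of 3.21 ± 0.27 (SE, adjusted p = 5.05e-06). Foxl2, a forkhead factor known from the ovary, lay between 3.84 and 4.25 in controls (median 3.94) and between 6.30 and 7.43 at 100 nM (median 7.20), a rise of 3.04 ± 0.20 (adjusted p = 4.91e-07). In both genes every treated array lay above every control. Kcne4, an accessory subunit of potassium channels, was already well expressed in controls, at 8.15 to 8.91 (median 8.46), and reached 11.00 to 11.60 (median 11.49), a rise of 2.87 ± 0.17 (adjusted p = 2.31e-07). Ptprn, a membrane protein of dense-core secretory granules, went from 2.66 to 2.98 in controls (median 2.89) to 3.92 to 6.47 (median 5.86), a rise of 2.88 ± 0.33 (adjusted p = 0.000108). Its lowest treated array, replicate 5, stood apart from the other 5 but still above all controls.

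Secreted and surface molecules followed. Kitlg, the ligand of the Kit receptor, lay between 7.38 and 8.18 in controls (median 7.62) and between 9.85 and 10.59 at 100 nM (median 10.27), a rise of 2.49 ± 0.16 (adjusted p = 3.62e-07). Wnt16, a secreted Wnt ligand, lay between 5.46 and 8.21 in controls (median 7.89) and between 8.59 and 11.28 at 100 nM (median 9.82), a rise of 2.48 ± 0.48 (adjusted p = 0.00541). The Wnt16 arrays were far more scattered than those of Kitlg, and in both genes the groups stayed apart. Itgb3, an integrin subunit that pairs with the alpha v chain to bind vitronectin, lay between 5.96 and 6.72 in controls (median 6.45) and between 8.18 and 8.99 at 100 nM (median 8.51), a rise of 2.18 ± 0.15 (adjusted p = 9.04e-07). It was the only 1 of 21 tested integrin genes that rose (4.76%), while 2 fell (9.52%), beside 8.15% and 3.98% of all genes.

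Of the regulators in the same range, Nr4a1, an orphan nuclear receptor known as an immediate early gene of cyclic AMP signalling, lay between 2.51 and 3.15 in controls (median 2.76) and between 4.70 and 5.52 at 100 nM (median 4.86), a rise of 2.20 ± 0.14 (adjusted p = 4.91e-07). Bhlhe40, a repressor tied to the circadian clock, lay between 5.04 and 6.20 in controls (median 5.64) and between 7.30 and 8.45 at 100 nM (median 7.79), a rise of 2.18 ± 0.27 (adjusted p = 0.000185). Adora2a, an adenosine receptor that couples to adenylyl cyclase, lay between 2.31 and 2.34 in controls (median 2.34), close to the floor, and between 4.02 and 5.75 at 100 nM (median 4.54), a rise of 2.41 ± 0.30 (adjusted p = 0.000204). These 3 genes had low or moderate levels in untreated bulbs and no overlap between the groups. Aldoc, the brain form of the glycolytic enzyme aldolase, lay between 6.93 and 7.87 in controls (median 7.44) and between 8.83 and 9.95 at 100 nM (median 9.80), a rise of 2.12 ± 0.21 (adjusted p = 3.17e-05).

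Next after the 12 largest falls came a mixed group in which red cell genes were prominent. Npy, a neuropeptide, lay between 8.31 and 8.97 in controls (median 8.37) and between 4.96 and 7.64 at 100 nM (median 6.32), a fall of 2.10 ± 0.38 (SE, log2 difference -2.10, adjusted p = 0.00364). Adra2b, an alpha-2 adrenergic receptor, lay between 3.63 and 6.76 in controls (median 5.30) and between 2.12 and 4.36 at 100 nM (median 2.51), a log2 difference of -2.46 ± 0.58 (adjusted p = 0.0154). Lyl1, a helix-loop-helix factor of blood cell precursors, lay between 8.21 and 9.45 in controls (median 8.79) and between 5.70 and 8.15 at 100 nM (median 6.25), a difference of -2.11 ± 0.45 (adjusted p = 0.00943). The groups were apart in Npy and Lyl1 and overlapped in Adra2b. Other members of this stretch were the red cell genes Alas2, Ahsp, Epb42 and Rhd, with differences of -2.65, -2.57, -2.45 and -2.54.

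Markers of red cells moved with these falls. The mean of the 10 erythroid markers on the array ranged from 7.81 to 10.57 over the control arrays and from 6.12 to 9.02 over the treated ones. Its group means were 9.44 and 7.29, and of the 9 markers that were tested 6 fell. Rhag, which was on the array but not tested, lay at the floor in both groups. With the mean of the 9 tested markers as a covariate in the fit, Adra2b (difference -0.39, adjusted p = 0.578), Lyl1 (-0.77, adjusted p = 0.366) and Npy (-2.03, adjusted p = 0.0685) no longer passed limma's threshold. Neither did Alas2, Ahsp, Epb42 or Rhd, with adjusted p-values from 0.267 to 0.605. Alas2, Ahsp and Epb42 are among the 9 markers averaged into the covariate, so the loss of their calls was largely fixed in advance. Rhd is not among them. Over all genes the covariate left 291 higher and 148 lower, of which 254 and 104 were among the original calls. Since the covariate itself differed between the groups, the fit with it estimates their difference less precisely. A call lost under it, here and below, can come from lower precision as well as from a smaller difference. It therefore does not show that a gene depends on red cells. Granulocyte markers were lower too, with a mean over the 8 on the array of 5.26 in controls (array means 4.36 to 6.78) and 3.80 at 100 nM (2.87 to 4.51). Of 6 tested, 3 fell, and only Prg2 (difference -3.33, adjusted p = 0.0138) kept its call in every fit without 1 array. The granulocyte markers Cebpe and Csf3r were at the floor. Of 11 tested macrophage markers 2 fell, neither of them in every fit without 1 array, and none rose. All 13 macrophage markers on the array, of which Cd163 and Cx3cr1 lay at the floor, had means of 9.19 in controls and 8.88 at 100 nM.

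**Figure D3:**
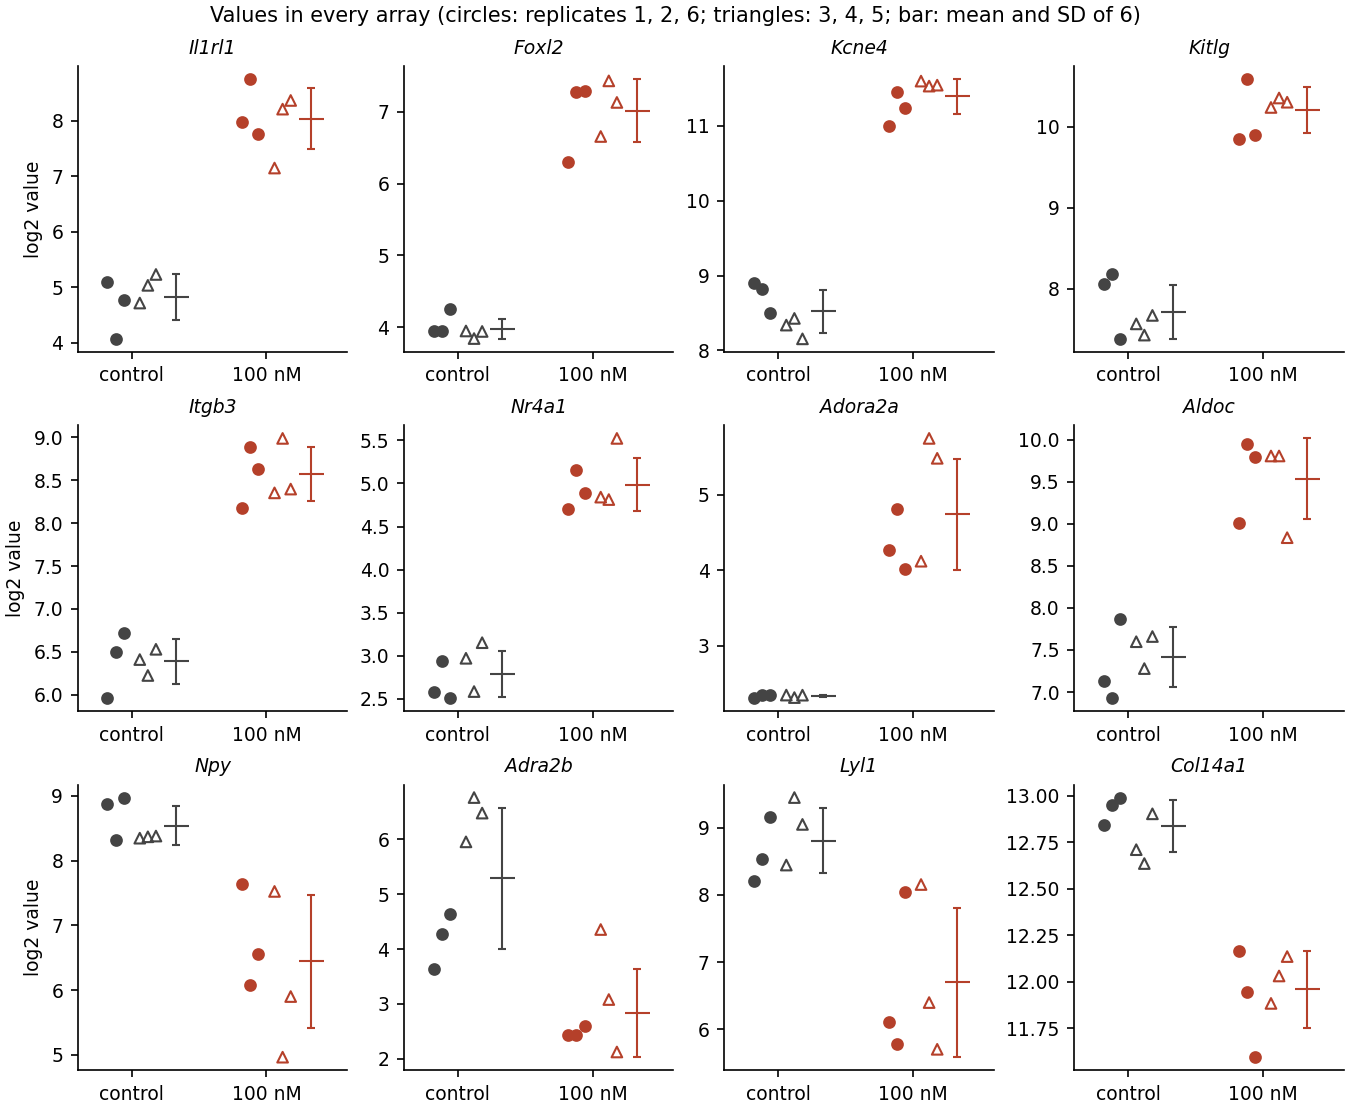
Log2 values of 12 genes in each of the 6 control and 6 treated arrays, with circles for replicates 1, 2 and 6, triangles for replicates 3, 4 and 5, and bars for the mean ± SD. In 11 of the 12 genes the groups are apart, and in Adra2b they overlap.

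Turning to whole gene classes, secreted growth factors were among those with many calls. Of 54 tested, 15 rose (27.8%) and 3 fell, with a median difference of 0.12, beside 8.15% and 3.98% of all genes and their median of 0.02. Besides Kitlg, the Wnt ligands Wnt2 and Wnt4 rose. Wnt2 did not pass the filter value in any control (2.19 to 2.25, median 2.21) and reached 5.22 to 6.90 at 100 nM (median 6.41), at least 16.5-fold above the filter value of 2.28 (adjusted p = 1.14e-07). Only arrays with Insl3 brought Wnt2 into the test. Wnt4 was already abundant, at 10.96 to 11.53 in controls (median 11.24), and reached 12.35 to 13.54 (median 13.16), a rise of 1.85 ± 0.18 (adjusted p = 2.01e-05). Its treated values did not meet the control range. Gdf10, a member of the TGF-beta family, went the other way, from 10.15 to 10.60 in controls (median 10.28) to 8.76 to 9.48 (median 9.25), a difference of -1.14 ± 0.12 (adjusted p = 5.91e-05). Nrtn, a ligand of the GDNF family, ranged from 8.56 to 10.10 in controls (median 9.26) and from 6.86 to 8.82 at 100 nM (median 7.43), a difference of -1.68 ± 0.39 (adjusted p = 0.0148). The Nrtn groups overlapped, and with the erythroid covariate its difference was -0.31 (adjusted p = 0.553).

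Among 32 secreted inhibitors of growth factors, 6 rose (18.8%) and 2 fell (6.25%), beside 8.15% and 3.98% of all genes. Chrdl2, a chordin-like binder of BMPs, went from 4.77 to 5.78 in controls (median 5.20) to 8.28 to 9.18 (median 8.99), a rise of 3.56 ± 0.23 (adjusted p = 3.75e-07). Frzb, a secreted Wnt antagonist, went from 5.40 to 6.38 (median 6.26) to 6.36 to 7.64 (median 7.18), a rise of 1.02 ± 0.20 (adjusted p = 0.00571). The Chrdl2 groups were wide apart and the Frzb groups just touched. Guidance cues and their receptors split evenly, with 6 higher and 6 lower of 52 (11.5% each) and a median of 0.01. Sema3d, a secreted semaphorin, lay between 8.07 and 8.98 in controls (median 8.39) and between 6.28 and 7.85 at 100 nM (median 6.47), a difference of -1.64 ± 0.25 (adjusted p = 0.0011). Slit2, a repulsive cue, lay between 7.83 and 8.13 in controls (median 7.91) and between 7.02 and 7.55 at 100 nM (median 7.47), a difference of -0.60 ± 0.11 (adjusted p = 0.00357). In both the groups were apart. With the erythroid covariate the Sema3d difference was -1.05 (adjusted p = 0.0714) and that of Slit2 was -0.49 (adjusted p = 0.108). Chemokines and interleukins were few, with 2 of 21 higher and 2 lower (9.52% each), so that their rises were near the share over all genes.

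Receptors showed calls in both directions. Of 89 G protein-coupled receptors 12 rose (13.5%) and 7 fell (7.87%), with a median of 0.07, beside 8.15% and 3.98% of all genes. Agtr1b, an angiotensin receptor, was at the floor in every control at 2.11 and ranged from 3.50 to 5.46 at 100 nM (median 4.05), at least 4.06-fold above the filter value (adjusted p = 0.000969). Like Wnt2, it entered the test only through arrays with Insl3. Adra2a, an alpha-2 adrenergic receptor like Adra2b, rose from between 4.73 and 7.31 in controls (median 5.99) to between 7.61 and 8.62 (median 7.99), by 2.03 ± 0.38 (adjusted p = 0.00463). Tshr, the thyrotropin receptor, fell from between 5.62 and 6.85 (median 6.64) to between 4.11 and 5.11 (median 4.65), a difference of -1.79 ± 0.26 (adjusted p = 0.000791). The groups were apart in all 3 of these receptors, and Adra2a differed from Adra2b in the sign of its difference. Gpr85, an orphan receptor, ranged from 7.05 to 7.89 in controls (median 7.61) and from 4.92 to 6.88 at 100 nM (median 6.37), a difference of -1.47 ± 0.30 (adjusted p = 0.00814), which became -1.44 (adjusted p = 0.102) with the erythroid covariate.

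Receptor kinases gave 6 rises (16.7%) and 4 falls (11.1%) among 36, with a median of 0.00, beside 8.15% and 3.98% of all genes. Fgfr2, a fibroblast growth factor receptor, went from 6.99 to 7.66 in controls (median 7.33) to 8.16 to 9.83 (median 8.96), a rise of 1.68 ± 0.25 (adjusted p = 0.000815). Egfr, the epidermal growth factor receptor, went from 9.87 to 10.21 (median 9.96) to 9.11 to 9.68 (median 9.41), a difference of -0.61 ± 0.13 (adjusted p = 0.00804). Ddr2, a receptor for fibrillar collagen, went from 9.64 to 10.12 (median 9.94) to 9.21 to 9.58 (median 9.46), a difference of -0.47 ± 0.09 (adjusted p = 0.00551). None of the 3 overlapped between groups. With the erythroid covariate, Egfr (-0.58, adjusted p = 0.11) and Ddr2 (-0.46, adjusted p = 0.0849) kept nearly the same size but not the call. Cytokine and TNF family receptors rose more often than they fell, 9 (23.1%) against 1 (2.56%) of 39, with a median of 0.16. Tnfrsf21, a death domain receptor, went from 7.42 to 8.01 in controls (median 7.88) to 8.73 to 9.65 (median 9.31), a rise of 1.38 ± 0.15 (adjusted p = 6.93e-05), with the groups apart. Nuclear receptors gave 4 rises (16%) and no fall among 25. In addition to Nr4a1 these included Nr4a2, of the same orphan family, which went from 3.82 to 5.02 (median 4.76) to 5.30 to 7.56 (median 6.67), a rise of 1.94 ± 0.32 (adjusted p = 0.00181).

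Inside the cell, the enzymes that make and degrade cyclic nucleotides gave 8 rises (19.5%) and 2 falls (4.88%) among 41. The shares over all genes were 8.15% and 3.98%, and the median of the class was only 0.01. All 8 rises stayed past the threshold in each of the 12 fits without 1 array, and 5 of them did with the erythroid covariate. Pde10a, a phosphodiesterase of both cyclic AMP and cyclic GMP, went from 4.30 to 4.74 in controls (median 4.51) to 7.02 to 8.97 (median 8.16), a rise of 3.63 ± 0.27 (adjusted p = 1.66e-06). Pde8a, specific for cyclic AMP, went from 3.78 to 5.20 (median 4.48) to 5.46 to 6.99 (median 6.03), a rise of 1.67 ± 0.33 (adjusted p = 0.00562). Pde2a, which cyclic GMP activates, fell from between 9.24 and 9.46 (median 9.39) to between 8.42 and 9.16 (median 8.72), a difference of -0.61 ± 0.12 (adjusted p = 0.00632). The groups were apart in each of these phosphodiesterases. G protein subunits and RGS proteins gave 9 rises (20.5%) and 2 falls (4.55%) of 44, and small GTPases 14 (14.1%) and 2 (2.02%) of 99. Rasd1, a small GTPase first known as a glucocorticoid-induced gene, went from 7.49 to 8.61 in controls (median 8.11) to 8.87 to 10.74 (median 9.95), a rise of 1.85 ± 0.32 (adjusted p = 0.00285). With the erythroid covariate its difference was 0.92 (adjusted p = 0.142).

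Phospholipases and enzymes of inositide signalling leaned the opposite way, with 2 of 76 higher (2.63%) and 9 lower (11.8%) and a median of 0.01. With the covariate no member rose and 2 fell. Inpp5d, a lipid phosphatase of blood cells, lay between 5.59 and 6.20 in controls (median 5.97) and between 4.82 and 5.63 at 100 nM (median 5.33), a difference of -0.67 ± 0.14 (adjusted p = 0.00837). Its groups overlapped slightly, and with the erythroid covariate the adjusted p was 0.173. Calcium-binding and calmodulin-related proteins gave 10 rises (17.5%) and 4 falls (7.02%) of 57, beside 8.15% and 3.98% of all genes. Calb1, a calcium buffer, was at the floor of 2.11 in every control and spread from 2.43 to 5.02 at 100 nM (median 3.78), at least 2.82-fold above the filter value (adjusted p = 0.0194). It too entered the test only through arrays with Insl3. With the erythroid covariate the Calb1 difference was 1.66 (adjusted p = 0.158).

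Channels rose about as often as genes in general (8.15%). Of 27 potassium channel genes, Kcne4 among them, 2 rose (7.41%) and 1 fell. Of 71 other ion channels 6 rose (8.45%) and none fell, with 1 rise and 1 fall under the erythroid covariate. Solute carriers were the largest transport class, with 34 of 177 higher (19.2%), 12 lower and a median of 0.11. Slc44a1, a choline transporter, was tightly grouped, at 10.32 to 10.55 in controls (median 10.41) and 11.42 to 12.08 at 100 nM (median 11.67), a rise of 1.29 ± 0.09 (adjusted p = 1.35e-06). It was apart between the groups, and 2 further probe sets of the gene were called in the same direction. With the erythroid covariate the class held 15 rises and 4 falls.

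The balance of calls varied over the transcription factor families. Basic helix-loop-helix factors gave 9 rises (17.0%) and 3 falls (5.66%) of 53, and basic leucine zipper factors 6 (14.0%) and 2 (4.65%) of 43. Factors of the ETS, IRF, STAT and SMAD families gave 7 (11.5%) and 4 (6.56%) of 61. Over all genes the shares were 8.15% and 3.98%. Crem, which binds the cyclic AMP response element and has a cyclic AMP-induced repressor form, went from 9.42 to 10.17 in controls (median 9.93) to 10.71 to 11.89 (median 11.37), a rise of 1.48 ± 0.20 (adjusted p = 0.000371). All 4 other probe sets of Crem rose as well. Cebpb, a leucine zipper factor of mesenchymal differentiation, went from 9.85 to 10.22 (median 10.08) to 10.71 to 11.15 (median 10.97), a rise of 0.86 ± 0.10 (adjusted p = 8.57e-05). Creb3l1, a membrane-bound factor that promotes secretory and collagen genes, went from 9.24 to 9.78 (median 9.59) to 9.83 to 10.36 (median 10.18), a rise of 0.61 ± 0.11 (adjusted p = 0.00275). Each of these leucine zipper factors was clear of the control range. Twist2, a mesenchymal helix-loop-helix repressor, went from 4.82 to 5.19 (median 4.92) to 6.31 to 8.68 (median 7.95), a rise of 2.83 ± 0.31 (adjusted p = 6.93e-05).

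In other families falls were as many or more. FOX, SOX, GATA and KLF factors gave 3 rises (6.67%) and 8 falls (17.8%) of 45 with a median of -0.09. Homeobox and T-box factors gave 4 (6.35%) and 6 (9.52%) of 63, with rises near the 8.15% of all genes. Zinc finger proteins named Zfp or Znf gave 2 rises (0.858%) and 9 falls of 233 with a median of -0.02. The zinc finger falls (3.86%) were near the share over all genes (3.98%), and in replicates 3, 4 and 5 alone that class gave 22 rises and 6 falls. Of the 8 falls in the FOX, SOX, GATA and KLF class, 4 held with the erythroid covariate. Klf11, a Krüppel-like repressor, lay between 8.79 and 9.07 in controls (median 8.87) and between 8.09 and 8.56 at 100 nM (median 8.28), a difference of -0.62 ± 0.08 (adjusted p = 0.00033). Trps1, a GATA-type repressor of cartilage and hair, lay between 8.97 and 9.26 (median 9.04) and between 7.91 and 8.80 (median 8.47), a difference of -0.66 ± 0.13 (adjusted p = 0.00617). Ets1, the founding ETS factor, lay between 10.56 and 10.93 (median 10.77) and between 10.02 and 10.42 (median 10.14), a difference of -0.59 ± 0.08 (adjusted p = 0.00048). In these 3 genes the groups did not overlap. Tcf7 and Lef1, the nuclear partners of beta-catenin, both rose, by 0.82 ± 0.09 (adjusted p = 8.01e-05) and by 0.66 ± 0.10 (adjusted p = 0.00104). Tcf7 lay between 9.30 and 9.79 in controls (median 9.53) and between 10.10 and 10.64 at 100 nM (median 10.36). Lef1 lay between 7.36 and 7.87 in controls (median 7.48) and between 7.96 and 8.48 at 100 nM (median 8.18). Both were clear of the control range. Osr2, a zinc finger factor of limb and joint mesenchyme, went from 6.41 to 7.18 (median 7.03) to 7.24 to 8.22 (median 8.04), a rise of 1.04 ± 0.18 (adjusted p = 0.00286).

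For the signalling and regulatory classes above, the erythroid covariate also changed the counts. Rises and falls under it numbered 10 and 1 for growth factors, 3 and 2 for guidance cues, 9 and 3 for G protein-coupled receptors and 3 and 1 for receptor kinases. They numbered 2 and 2 for G protein subunits and RGS proteins, 9 and 1 for small GTPases, 3 and 2 for calcium-related proteins, 5 and 0 for helix-loop-helix factors, and 2 and 1 for the ETS, IRF, STAT and SMAD families.

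Collagens changed in both directions, 5 up (14.7%) and 4 down (11.8%) of 34, beside 8.15% and 3.98% of all genes. The network-forming Col8a2 rose from between 7.68 and 8.95 in controls (median 8.36) to between 9.50 and 10.38 (median 10.24), by 1.73 ± 0.24 (adjusted p = 0.000535). Col7a1, the collagen of anchoring fibrils, rose from between 4.63 and 5.43 (median 5.23) to between 6.38 and 6.97 (median 6.67), by 1.50 ± 0.14 (adjusted p = 2.11e-05). Col14a1, which sits on the surface of fibrils, fell from between 12.64 and 12.99 (median 12.87) to between 11.59 and 12.16 (median 11.99), a difference of -0.88 ± 0.10 (adjusted p = 0.000113). Both rises and this fall left no overlap. Col3a1, a main fibrillar collagen and among the most abundant transcripts in controls, had a control mean of 15.81 ± 0.06 and a treated mean of 15.82 ± 0.06 (SD over 6 arrays each), a difference of 0.01 ± 0.05 (SE) that did not pass the test.

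Other matrix glycoproteins and proteoglycans gave 15 rises and 3 falls of 70, and matrix proteases and their inhibitors 13 and 2 of 62. Smoc1, a basement membrane glycoprotein, went from 8.79 to 9.69 in controls (median 9.20) to 10.17 to 11.10 (median 10.54), a rise of 1.32 ± 0.19 (adjusted p = 0.000734). Dpt, a dermatan sulfate-binding protein of connective tissue, went from 8.81 to 9.95 (median 9.49) to 10.21 to 10.95 (median 10.63), a rise of 1.15 ± 0.17 (adjusted p = 0.000734). Adamts5, a protease that cuts aggrecan and versican, went from 7.83 to 8.32 (median 7.89) to 6.90 to 7.34 (median 7.20), a difference of -0.83 ± 0.11 (adjusted p = 0.000265). The groups were apart in all 3. Junction and immunoglobulin-type adhesion proteins gave 15 rises (18.8%) and 5 falls (6.25%) of 80. Gjb2 and Gjb6, connexins whose genes adjoin each other, both went from near the floor to higher values. Gjb2 was at 2.13 to 2.29 in controls (median 2.13) and 3.55 to 5.49 at 100 nM (median 3.95), a rise of 1.98 ± 0.27 (adjusted p = 0.000439). Gjb6 was at 2.11 to 2.81 in controls (median 2.26) and 3.13 to 6.04 at 100 nM (median 4.64), a rise of 2.29 ± 0.40 (adjusted p = 0.00275), with an adjusted p of 0.0511 under the erythroid covariate. That covariate lowered the counts to 6 rises and 3 falls for matrix glycoproteins, 4 and 1 for proteases and inhibitors, and 3 and 2 for junction proteins.

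The secretory pathway had many small rises. Glycosyl and sulfotransferases, which build sugar chains in the Golgi, gave 20 rises and no fall among 89 (22.5%), with a median of 0.17 and 77.5% of members above 0. B3gat3, which completes the linker of glycosaminoglycan chains, lay between 7.06 and 7.69 in controls (median 7.45) and between 8.02 and 8.58 at 100 nM (median 8.42), a rise of 0.93 ± 0.12 (adjusted p = 0.000385). Chaperones and disulfide isomerases gave 22 rises and 2 falls of 107 (20.6%), with a median of 0.10. Fkbp11, a proline isomerase of the endoplasmic reticulum, lay between 8.36 and 8.76 (median 8.63) and between 9.07 and 9.44 (median 9.35), a rise of 0.71 ± 0.08 (adjusted p = 8.13e-05). Selenom, a selenoprotein of the same compartment, lay between 11.25 and 11.77 (median 11.52) and between 11.99 and 12.36 (median 12.09), a rise of 0.63 ± 0.09 (adjusted p = 0.000581). In these 3 genes every treated array was above every control. Vesicle traffic genes gave 16 rises (8.51%) and 1 fall of 188, close to the share of all genes that rose (8.15%). With the erythroid covariate the rises numbered 9 for the transferases and 3 each for chaperones and vesicle genes.

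Genes of lipid synthesis and of lipid use had most of their calls in opposite directions. Of 37 enzymes of cholesterol and fatty acid synthesis 13 rose (35.1%), none fell, and 94.6% lay above 0, with a median of 0.31. Tm7sf2, a sterol reductase, lay between 8.23 and 8.86 in controls (median 8.34) and between 9.16 and 9.86 at 100 nM (median 9.55), a rise of 1.08 ± 0.14 (adjusted p = 0.00034). Scd, which puts the double bond into stearate, lay between 7.63 and 8.94 (median 8.58) and between 9.08 and 9.96 (median 9.42), a rise of 1.05 ± 0.23 (adjusted p = 0.00943). The control array of Scd that was highest still lay below the lowest treated one. The erythroid covariate left 1 of the 13 rises. Under it Scd kept nearly the same size, with a difference of 0.99, but not the call (adjusted p = 0.127). Of 36 genes of fatty acid oxidation and lipid storage 7 fell (19.4%) and 1 rose (2.78%), beside 3.98% and 8.15% of all genes. The median was -0.06, and 6 of the falls held with the covariate. Angptl4, an inhibitor of lipoprotein lipase, lay between 10.88 and 11.39 (median 11.01) and between 9.04 and 10.03 (median 9.74), a difference of -1.43 ± 0.15 (adjusted p = 6.3e-05), and its groups were far apart. Fabp4, the fatty acid carrier of adipocytes, lay between 6.55 and 8.03 (median 7.54) and between 5.60 and 6.92 (median 6.12), a difference of -1.28 ± 0.28 (adjusted p = 0.00998), with some overlap. Of 9 adipocyte markers, 5 were at the floor, among them Pparg, Adipoq and Plin1. Of the 4 tested, Fabp4 fell and Cfd rose, the latter from a mean of 6.11 in controls to 8.13 at 100 nM. The mean over the 9 markers was 3.71 in controls and 3.72 at 100 nM.

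**Figure D4:**
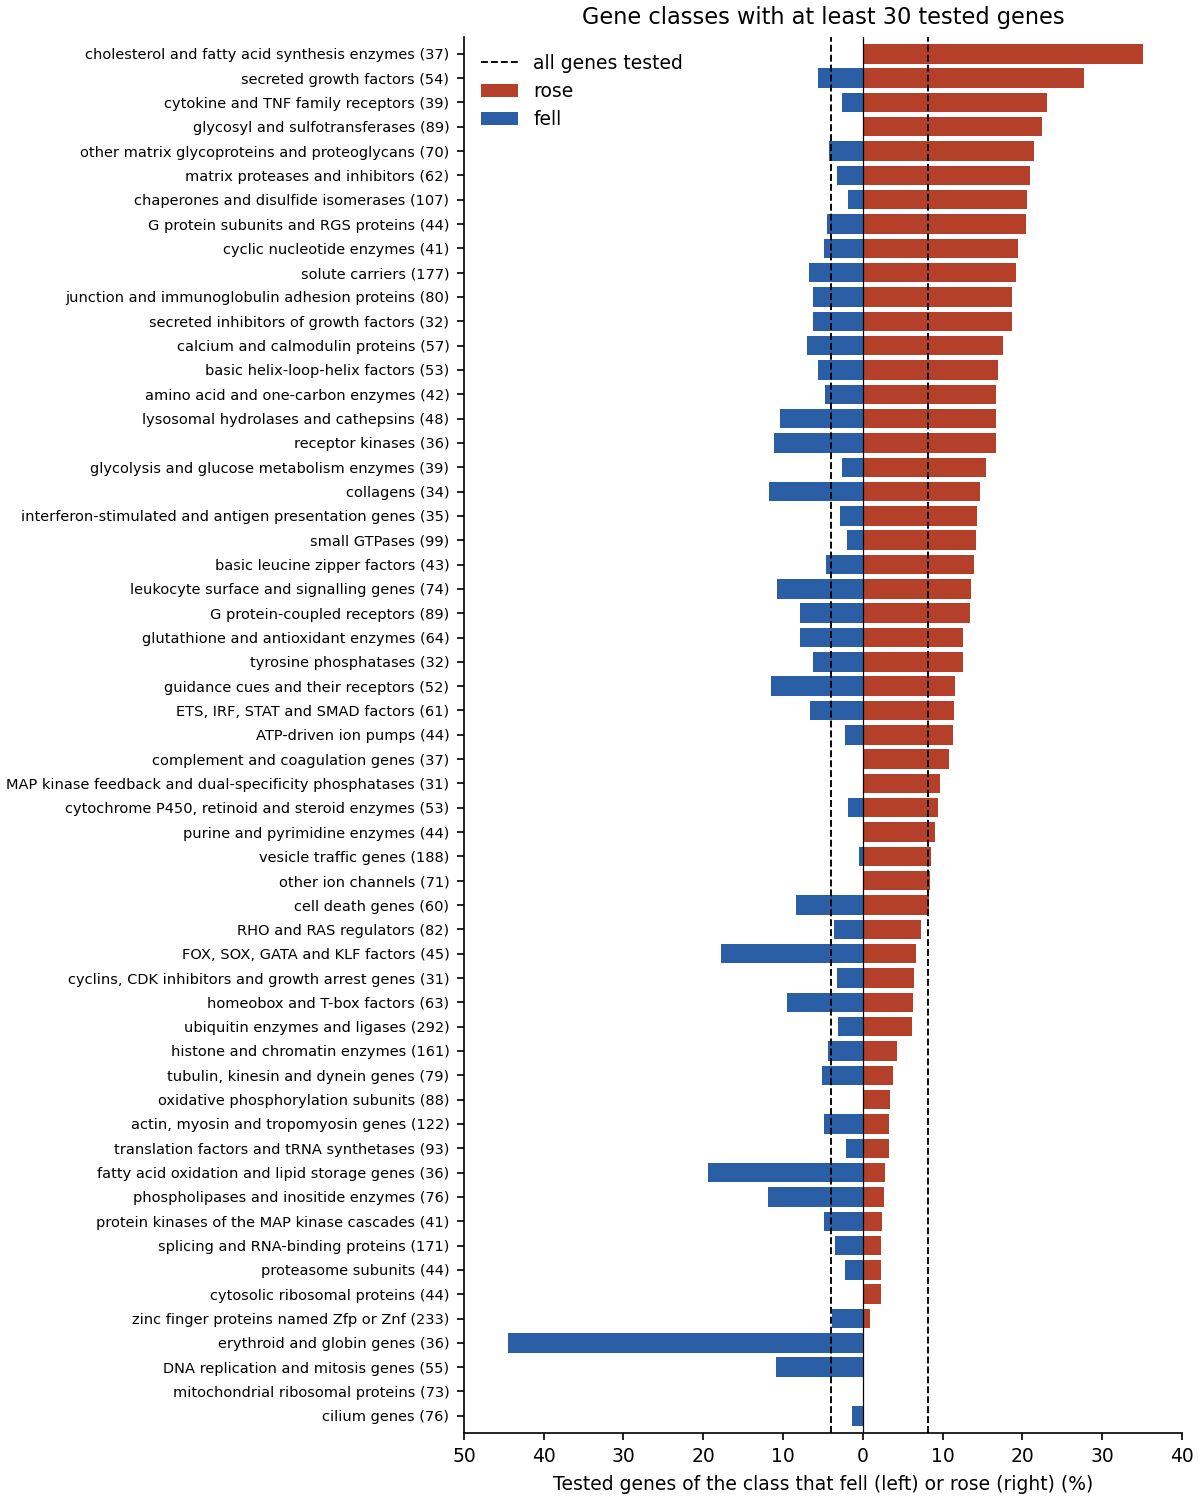
For each gene class with at least 30 tested genes, bars give the percent of members higher (right) and lower (left) at 100 nM Insl3, with lines for the percent over all genes (8.15% and 3.98%). Lipid synthesis (35.1% higher), growth factors (27.8%) and cytokine and TNF family receptors (23.1%) reach furthest to the right, and erythroid genes furthest to the left.

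Circadian clock genes gave 5 rises (27.8%) and no fall of 18, with a median of 0.22, beside 8.15% and 3.98% of all genes. Per1, a repressor of the clock that cyclic AMP signals also switch on, lay between 6.48 and 7.80 in controls (median 7.34) and between 8.07 and 8.50 at 100 nM (median 8.41), a rise of 1.09 ± 0.19 (adjusted p = 0.00243). Npas2, an activator of the clock, lay between 3.87 and 5.25 (median 4.89) and between 5.29 and 6.95 (median 6.28), a rise of 1.49 ± 0.31 (adjusted p = 0.00763). Both were apart between groups. Under the erythroid covariate 1 of the clock genes rose, with an adjusted p of 0.0605 for Per1 and 0.197 for Npas2.

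Housekeeping classes, which hold the most strongly expressed genes, had few calls beside the 8.15% of all genes that rose and 3.98% that fell. None of 73 mitochondrial ribosomal proteins, 1 of 44 cytosolic ribosomal proteins and 3 of 88 oxidative phosphorylation subunits were called in either direction. Splicing and RNA-binding proteins gave 4 rises (2.34%) and 6 falls (3.51%) of 171, so that their falls were near the share over all genes. Of 76 cilium genes 1 fell. DNA replication and mitosis genes gave no rise and 6 falls of 55, with a median of -0.10, and 2 of those falls held in every fit without 1 array and 1 with the erythroid covariate. Erythroid and globin genes gave 16 falls of 36 and a median of -0.92, of which none held with the erythroid covariate, as that covariate was built from some of them. Cdkn1c, a cell cycle inhibitor encoded by an imprinted gene, was near the top of the scale, with a control mean of 15.86 ± 0.03 and a treated mean of 15.86 ± 0.01 (SD over 6 arrays each), and did not pass the test.

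Genes known from testis descent were looked at as a group of 24 on the array. Of these 13 were tested, and 5 rose (38.5%) and 1 fell (7.69%), with a median of 0.01, beside 8.15% and 3.98% of all genes. With the erythroid covariate 3 of the 5 rises held and the fall did not, and none of the group was called in replicates 1, 2 and 6 alone. Ramp3, which with the calcitonin receptor-like receptor forms an adrenomedullin receptor, went from 5.52 to 7.50 in controls (median 5.99) to 7.83 to 8.30 (median 8.09), a rise of 1.87 ± 0.26 (adjusted p = 0.000515). Ramp2, its relative, went from 10.43 to 10.98 (median 10.67) to 11.07 to 11.47 (median 11.29), a rise of 0.61 ± 0.10 (adjusted p = 0.00121). Both were apart between groups, while Calcrl, the receptor they join, was at the floor in each group. Wnt5a, a ligand of non-canonical Wnt signalling, went from 8.67 to 9.40 (median 8.98) to 9.32 to 10.40 (median 10.00), a rise of 0.94 ± 0.16 (adjusted p = 0.00202), with a slight overlap. Calls were less firm for Hoxa11, whose rise of 0.31 had an adjusted p of 0.0244 and lost the call when control replicate 4 was left out (0.0552), and likewise for treated replicates 2 (0.054) and 4 (0.0562). The fall of Myod1, the master gene of skeletal muscle, of -0.32 (adjusted p = 0.0238) was lost when treated replicate 2 (0.0539) or 6 (0.0518) was left out. Bmp5 rose by 0.92 (adjusted p = 0.0409) but lost the call in 8 of the 12 fits without 1 array, those without control replicates 4 and 5 and without each of the treated replicates, with adjusted p-values from 0.0541 to 0.085. Wt1, Amhr2, Ctnnb1, Hoxa10, Notch1 and Ramp1 did not pass the test. Esr1 and Calca lay at the floor, and a value for Rxfp2 is not given here.

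The 10 nM arrays show where a lower dose lay for some of the genes above. They share the controls with the comparison above, so the values are given side by side without a test. Pde10a averaged 4.51 in controls, 8.15 at 10 nM and 8.14 at 100 nM, and Kitlg averaged 7.72, 9.88 and 10.21. Foxl2 averaged 3.98 in controls, 5.61 at 10 nM and 7.02 at 100 nM, and Nr4a1 averaged 2.79, 3.25 and 4.99. Npy averaged 8.54 in controls, 7.90 at 10 nM and 6.44 at 100 nM. At 10 nM, then, Pde10a and Kitlg lay near their 100 nM means, and Nr4a1 and Npy nearer to control.

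The replicates were not alike in their background state. Within groups, the first principal component of the 12 arrays held 30.2% of the variance and separated replicates 1, 2 and 6 from replicates 3, 4 and 5 in both groups. The labels name no batch, and this division was recognised from the same arrays. The log2 differences of all 18938 probe sets correlated between the sets at Pearson's r = 0.49 and Spearman's rho = 0.32, across probe sets that are not independent. Fitted alone, replicates 1, 2 and 6 gave 110 called probe sets and replicates 3, 4 and 5 gave 1691. Of these 61 were called in both, all in the same direction, which is 55.5% of the former and 3.61% of the latter. By gene, replicates 1, 2 and 6 alone gave 51 rises and 10 falls, and among the genes named above Kitlg, Itgb3, Aldoc, Npy, Adra2b and Col14a1 are examples that did not pass in that smaller fit, with differences there of 2.23, 2.17, 2.28, -1.96, -1.70 and -1.03. With all 17 arrays in the fit, that is with the arrays marked as outliers put back into the 10 nM group, Gjb2 (adjusted p = 0.275), Slit2 (0.162), Ddr2 (0.0811), Egfr (0.069) and Col14a1 (0.0515) did not pass either, although their differences are the same by construction.

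A limma interaction term found 112 probe sets (0.591%) whose difference between 100 nM and control was unlike in the sets. These stood for 56 genes, only 2 of which were called in the main comparison, and in 46 of the 56 the sign was opposite. Among them were immediate early and chemokine genes, chosen for this description after their values were seen. Egr1, a zinc finger factor switched on within minutes by serum and growth factors, had means of 12.70 in controls and 13.87 at 100 nM in replicates 1, 2 and 6, and of 14.30 and 12.44 in replicates 3, 4 and 5, a difference between sets of -3.03 (adjusted p = 0.0121). Fos, a subunit of AP-1, had means of 7.59 and 9.39 in the former and 10.41 and 8.01 in the latter, a difference between sets of -4.20 (adjusted p = 0.049). Ccn1, a matricellular target of serum and YAP signals, had means of 3.85 and 6.32, then 8.63 and 4.32, a difference of -6.79 (adjusted p = 0.0322). In all 3 genes the controls of replicates 3, 4 and 5 were higher than those of replicates 1, 2 and 6. Their treated means were lower, with no overlap of single arrays in Egr1 and some in Fos and Ccn1.

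Differences of opposite sign in the sets also appeared in Egr2, a relative of Egr1 (difference between sets -4.00, adjusted p = 0.0264), in Ccn2, a relative of Ccn1 (-1.78, adjusted p = 0.0151), and in Ier2 (-1.68, adjusted p = 0.0479). The Ccn2 controls overlapped between the sets, with means of 8.64 in replicates 1, 2 and 6 and 8.73 in replicates 3, 4 and 5. The chemokine genes Ccl2 and Ccl7 joined them. Ccl2 control arrays lay between 6.96 and 7.36 in replicates 1, 2 and 6 and between 8.38 and 8.93 in replicates 3, 4 and 5, while its treated arrays lay between 7.82 and 8.31 and between 6.90 and 7.43, a difference of -2.39 (adjusted p = 0.0123). The Ccl7 controls lay between 4.34 and 5.14 and between 6.67 and 6.84, and its treated arrays between 4.24 and 5.02 and between 3.63 and 4.43, a difference of -2.73 (adjusted p = 0.0197). None of these 8 genes passed the test over all replicates. The erythroid mean also differed between the sets of controls, at 7.81, 8.43 and 9.46 in replicates 1, 2 and 6 and 10.04, 10.57 and 10.31 in replicates 3, 4 and 5, and its part in these differences was not tested.

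**Figure D5:**
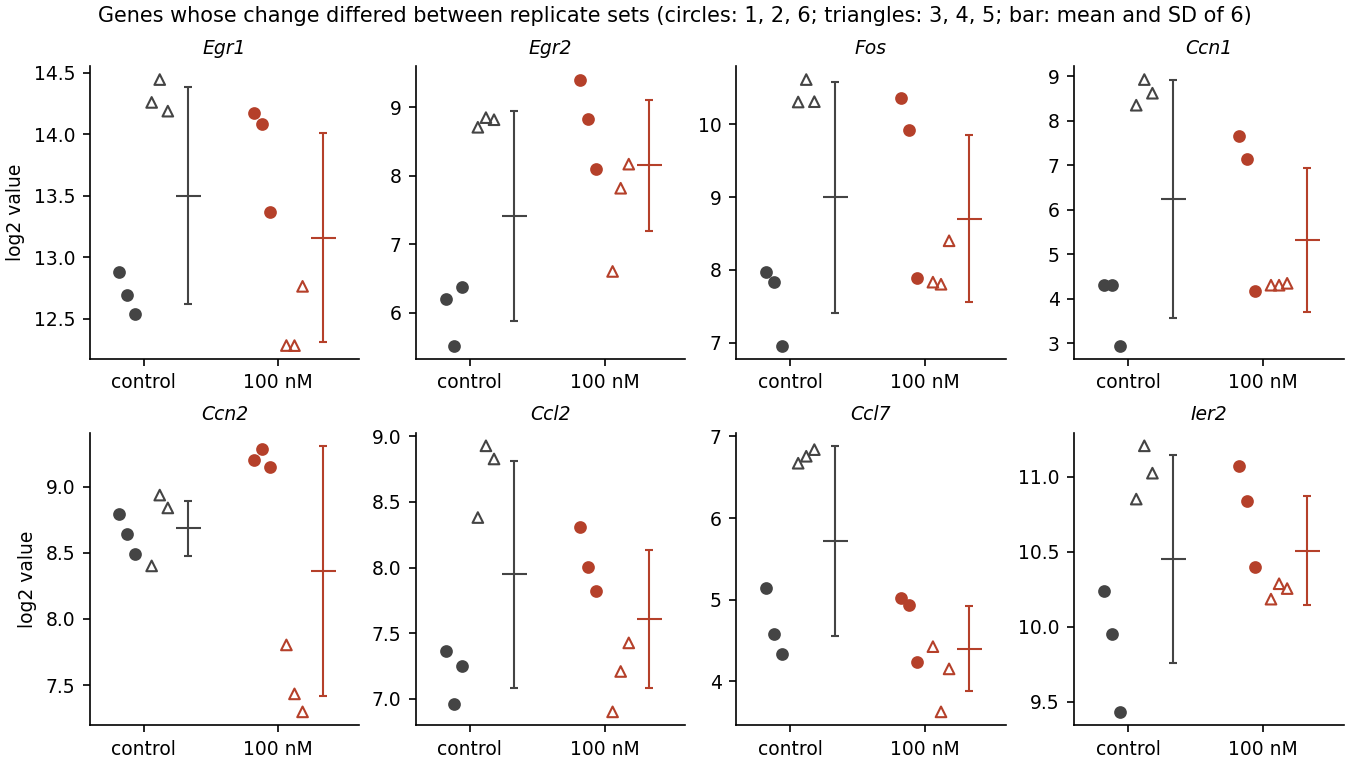
Log2 values of 8 immediate early and chemokine genes in control and 100 nM Insl3 arrays, with circles for replicates 1, 2 and 6, triangles for replicates 3, 4 and 5, and bars for the mean ± SD of all 6. In replicates 3, 4 and 5 every treated mean is below the control mean, and in replicates 1, 2 and 6 it is above it, by as little as 0.05 in Ccl7.

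Since Insl3 signals through cyclic AMP, promoters were searched for the element that cyclic AMP-dependent factors bind. RefSeq promoter windows of GRCr8, from 250 bases before to 50 after the start, matched 8875 of the tested genes, 706 of them risen and 334 fallen. The element TGACGTCA, read on both strands, was in 2.97% of windows of risen genes, 1.20% of fallen genes, 3.25% of genes not called and 1.91% of all 27457 windows in the table. Its share in risen genes was thus close to that of genes not called. The shorter TGACG, which lies within it, was in 30.9%, 29.9% and 32.8% of risen, fallen and not called genes and in 22.0% of all windows. The AP-1 site TGACTCA was in 4.53%, 4.79% and 3.10%, and in 4.53% of all windows. The GC box GGGCGG was in 70.4% of risen, 61.4% of fallen and 63.1% of not called genes, and in 34.9% of all windows. Median GC content was 64.0% in risen, 60.8% in fallen and 61.0% in not called genes. These are matches of letters and not measured sites.

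In 18 risen genes the element lay before the start. The 6 of these with the largest rises are shown, each with up to 30 bases on either side within the 250 bases before the start, 5′ to 3′ on the gene's strand, with the element in capitals, so that its surroundings can be compared. Pmepa1, with a rise of 0.60, would also rank here, but its element lies after the start. They lie at chr18:23196194-23196261 (minus strand) for Rit2, chr16:18975591-18975630 (plus strand) for Tmem59l, chr11:45118406-45118473 (minus strand) for Rcan1, chr3:36116702-36116769 (minus strand) for Slc25a25, chr11:75695487-75695554 (minus strand) for Tmem39a and chr9:84416730-84416773 (minus strand) for Chpf, all in GRCr8.
Rit2: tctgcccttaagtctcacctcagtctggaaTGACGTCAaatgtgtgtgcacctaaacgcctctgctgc
Tmem59l: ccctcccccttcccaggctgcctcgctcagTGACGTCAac
Rcan1: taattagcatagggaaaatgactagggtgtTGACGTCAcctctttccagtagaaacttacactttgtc
Slc25a25: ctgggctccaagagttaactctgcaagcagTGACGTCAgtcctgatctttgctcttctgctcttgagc
Tmem39a: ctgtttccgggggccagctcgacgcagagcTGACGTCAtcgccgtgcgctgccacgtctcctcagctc
Chpf: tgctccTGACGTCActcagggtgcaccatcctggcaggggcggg

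Apart from Rit2, the rises of these genes ranged from 0.54 to 1.54, above the median of 0.46 over all genes that rose, as they were picked for their size. Tmem59l, a neuronal membrane protein, lay between 6.79 and 7.88 in controls (median 7.45) and between 8.43 and 9.35 at 100 nM (median 9.02), a rise of 1.54 ± 0.18 (adjusted p = 0.000147). Rcan1, an inhibitor of calcineurin, lay between 8.55 and 9.20 (mean 8.95) and between 9.54 and 10.08 (mean 9.81), a rise of 0.86 ± 0.11 (adjusted p = 0.000324). Chpf, a polymerising factor of chondroitin sulfate chains, lay between 9.81 and 10.19 (median 10.09) and between 10.45 and 10.68 (median 10.64), a rise of 0.54 ± 0.07 (adjusted p = 0.000263). In these 3 genes the groups were apart. Tmem39a, a membrane protein of the endoplasmic reticulum, rose by 0.57 ± 0.10 (adjusted p = 0.003), from 9.42 to 9.81 in controls (median 9.66) to 9.84 to 10.41 (median 10.30), again without overlap. Rit2, a neuronal small GTPase, was at or below the filter value in all 6 controls (2.11 to 2.24, median 2.14) and in 1 treated array, with treated values from 2.14 to 4.86 (median 3.98, adjusted p = 0.0151). Only arrays with Insl3 brought Rit2 into the test. In replicates 1, 2 and 6 alone, Rit2 (adjusted p = 0.361), Tmem59l (0.113), Chpf (0.122), Tmem39a (0.335) and Slc25a25 (0.608) did not pass. Slc25a25, a calcium-sensitive mitochondrial carrier, lay between 6.19 and 7.22 (median 6.81) and between 6.99 and 8.06 (median 7.70), and rose by 0.80 ± 0.21 (adjusted p = 0.0246). That call was lost when control replicate 5 was left out (adjusted p = 0.0528), when treated replicate 4 (0.0564) or 6 (0.0543) was, without the filter on low values (0.0589), and with the erythroid covariate (0.155). With all 17 arrays in the fit the adjusted p of Chpf was 0.0505, and with the erythroid covariate that of Tmem39a was 0.054.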

How the data were processed

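Gubernacular RNA was hybridised to Affymetrix rat arrays after labelling of 150 ng per pool, with an RNA integrity number of 10 in each array compared. The authors deposited 1 log2 value per probe set and array, made with GCRMA per the submitters' processing notes. The version of GCRMA and the base of the logarithm are not given in the sources used here, and base 2 was taken from the range of the values (2.11 to 16.90). GCRMA quantile-normalizes arrays and shrinks weak probes to a floor, which compresses differences of weakly expressed genes. Every column of the table was used, with 0 left out. Of 31042 probe sets other than manufacturer's controls, 20826 are listed with a single gene, 436 with several and 9780 are not listed, and symbols were updated through the RefSeq gene table of GRCr8 (20758 matched).

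Values were fitted with limma 3.58.1 in R 4.3.3 (lmFit and eBayes, 2-sided) over 15 arrays in 3 groups, after a filter at the 40th percentile in at least 3 arrays, with a threshold of 0.05 on the adjusted p. The test was tested on simulated data. "At least" folds compare the treated mean with the filter value. Genes were named by rank (13 to 30 among rises, 13 to 24 among falls, the first 12 only beside them), by the 3 largest changes of each direction in each gene class, by the 4 largest at each of 5 expression levels, and by the rules stated beside them. The members, gene classes and lists were chosen with earlier results of these data known, so that they are no independent support for any direction. Alternatives covered the arrays in the fit, the replicate number as a block, the filter, the normalization, the variance model, covariates and leaving out each array. Whether replicate numbers pair the arrays was checked from their deviations.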

Additional observations from a re-analysis of the deposited data

Results flagged for a closer look

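Egr1, Egr2, Fos, Ccn1, Ccn2, Ccl2, Ccl7 and Ier2 differed between the sets of replicates in their response to 100 nM Insl3 by limma's interaction term. The response in replicates 3, 4 and 5 minus that in replicates 1, 2 and 6 was -3.03 for Egr1, -4.00 for Egr2, -4.20 for Fos, -6.79 for Ccn1, -1.78 for Ccn2, -2.39 for Ccl2, -2.73 for Ccl7 and -1.68 for Ier2. The adjusted p-values ranged from 0.0121 to 0.049.

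Single arrays stood far from the other 5 of their group in 14 of 212 groups of named genes and arrays examined, a rate that chance gives in about 1 of 20 groups. Of the controls, replicate 6 did so in Foxl2 (4.25), Wnt16 (5.46), Nr4a2 (3.82), Bmp5 (4.48) and Amhr2 (6.03), replicate 4 in Tnfrsf21 (7.42) and Col7a1 (4.63), replicate 3 in Gjb2 (2.29) and Rit2 (2.24), and replicate 5 in Col8a1 (2.71). At 100 nM, replicate 5 did so in Ptprn (3.92) and Bmp5 (7.22), replicate 2 in Gjb2 (5.49) and replicate 1 in Wt1 (11.67). All values are log2 levels. The values in Gjb2, Rit2 and Col8a1 controls lie near the floor, where small steps separate arrays.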

How the results depend on the processing

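Under the other settings the counts kept their direction of imbalance, with more rises than falls, but not always their size. With all 17 arrays in the fit there were 700 probe sets higher and 308 lower, and 489 and 160 genes. Replicates 1, 2 and 6 alone gave 80 and 30 probe sets, 51 and 10 genes, and 72 probe sets of at least 2-fold in place of 363. The mean of the 9 tested erythroid markers as a covariate left 425 and 298 probe sets, and 291 and 148 genes. Without the filter on low values, 498 probe sets and 268 genes were lower, and 39 probe sets, not 112, differed between the sets of replicates. With array weights 638 genes were lower. Leaving out each array in turn gave 898 to 1461 probe sets higher and 527 to 1155 lower, 634 to 1052 and 266 to 600 genes, and 315 to 392 probe sets of at least 2-fold. Ranked by controls, the lowest of 10 levels held 3.96% called probe sets, and the lowest of 5 levels held 4.59%. Without the filter the lowest of 10 levels held 0% and the highest 10.4%.

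The replicate numbers were not taken as pairs: the deviations of same-numbered arrays correlated at 0.01 to 0.20, over 0.1 in 4 of 6 pairs, and 1 of the 6 correlated best with its own number. With a replicate block there were 1038 and 743 probe sets and 728 and 363 genes, and Rit2 (adjusted p = 0.053 in limma) and Slc25a25 (0.0658) did not pass. Ier2, not called over all replicates, had a difference of -0.79 (adjusted p = 0.0174 in limma) in replicates 3, 4 and 5 alone, the reverse of its sign over all arrays. Signal near the floor limits what can be said of weakly expressed genes, and the cause of the changes in count was not tested.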

Other observations

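Genes that lie next to each other on the chromosome were sometimes called together. Of 6081 neighbouring pairs in which both genes were tested, both were called in 102, in the same direction in 87 and in opposite directions in 15. Among all tested genes 8.15% rose and 3.98% fell, so some pairs are called together by these shares alone. Whether neighbours were called together more often than that was not tested. Among the pairs in the same direction were Gjb2 and Gjb6, the short-chain collagen gene Col8a1 and Filip1l (4.27 and 1.74), and Aldoc and Pigs (2.12 and 0.61). The neighbours Slc7a1 and Mtus2 had differences of 0.58 and -0.59. These pairs were chosen after their values were seen.

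Genes that fell were longer in the annotation. The median length was 35639 bases for 422 genes that fell, 24553 for 9250 genes not called and 20470 for 865 genes that rose. The values are a description without a test.

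Different probe sets of a gene did not always go the same way. Of 348 called genes with several tested probe sets, 120 had another that was called in the same direction, 170 had none called but all others of the same sign, 41 had all others of opposite sign and 16 had a mixture. In Gng12, a G protein gamma subunit, 1 probe set rose by 0.33 (adjusted p = 0.0205 in limma) and another had a difference of -0.60 (adjusted p = 0.0353). In Sec63, a component of protein import into the endoplasmic reticulum, the values were 0.52 (adjusted p = 0.0491) and -0.93 (adjusted p = 0.0402). Of all called probe sets, 415 (232 higher and 183 lower) carry no single gene name and went into no gene class.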
